A study of Mus musculus with 6 samples.

Results

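The interferon regulatory factors (IRFs) are the transcription factors named for their binding to interferon genes and to the genes that interferon induces. The members described here were Irf1, Irf2, Irf3, Irf4, Irf5, Irf7, Irf8 and Irf9, chosen by family name and taken as the rows of the deposited expression table that carry these symbols. All 8 were found among the 15415 genes listed, and all 8 were among the 9030 genes tested, which had a mean of at least 1 FPKM in one group (a read count corrected for gene length and for the reads of the whole library, so that levels of different genes can be compared).

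The RNA came from peritoneal macrophages (PEMs), collected from mice on a C57BL/6J background after an intraperitoneal injection of starch, and the question was how loss of the phosphatidylserine receptor Tim-4 changes gene expression in these cells. The CKO group held 3 libraries, made from mice that carry LysM-Cre with Tim-4 fl/fl. Their Cre is made from the Lyz2 locus of myeloid cells and deletes the floxed gene, Timd4. The Control group held 3 libraries from Tim-4 fl/fl mice without Cre, so both groups carried the floxed allele, and the labels give LPS, the bacterial ligand of TLR4, as the treatment of all 6. The mice were male, 6 to 8 weeks old, and the methods do not say whether the sequenced cells were among those stimulated with LPS in culture. Whether each library came from its own animal is not given in the sources used here, so the p-values measure only the spread between these libraries, which may be technical. Groups were taken from the sample titles, because the genotype entry of the labels names them the other way round.

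IRF proteins share a DNA-binding domain that reads GAAA-rich motifs. In macrophages stimulated with LPS, the kinase TBK1 phosphorylates IRF3, which switches on interferon beta, and the secreted interferon then acts through its receptor on ISGF3, the complex that contains STAT2 and IRF9. ISGF3 raises IRF7, which feeds the same loop, while IRF1, IRF5 and IRF8 drive inflammatory and antigen-presentation genes, IRF2 opposes IRF1 at shared motifs, and IRF4 accompanies alternative activation and is abundant in B cells and plasma cells.

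The table gave back 36170767 to 42217558 counted reads per library. Timd4 was at 0.333, 0.394 and 0.246 FPKM in CKO libraries 1 to 3, against 19.5, 12.0 and 1.19 FPKM in Control libraries 1 to 3, which is the direction of the titles. Lyz2, the gene that carries Cre, was at 41.4, 4656 and 106 FPKM in the CKO libraries, against 7090.2 to 8482 FPKM in the Control libraries, so CKO library 2 stood apart from the other two. Of the 8 listed macrophage genes, Adgre1, Itgam, Cd68, Csf1r and Cd14 were at 83.3 FPKM or more in every library, with Csf1r and Cd14 lower and Cd68 higher in every CKO library than in any Control library. Mertk was at 0.821 to 12.1 FPKM, Lyz2 is given above, and Fcgr1 passed the test as higher in the CKO libraries (36.1 to 57.5 FPKM, against 5.16 to 6.58 FPKM). The 10 listed dendritic cell genes summed to 20.6 to 43.4 FPKM per library, most of it from Itgax, which macrophages also express, and from Ccr7, and the other 8, with Flt3, Zbtb46, Xcr1 and Clec9a among them, were each below 1 FPKM in every library. In these bulk samples, fewer cells of a type and less RNA per cell cannot be told apart.

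The start regions of the IRF genes differ in the motifs they hold. Of the 8 members, 8 matched RefSeq promoter sequences of the GRCm38.p6 build, with 11 annotated start regions among them. The 250 bases before each start were searched on both strands for the STAT motif GAS (TTCNNNGAA), the interferon-stimulated response element ISRE (GAAANNGAAA), the ETS-IRF composite element (GGAANNGAAA) and the NF-kappaB motif. Such a stretch holds a GAS match in 7.02%, an ISRE match in 2.98%, a composite match in 2.30% and an NF-kappaB match in 7.25% of all 32851 mouse promoters searched in this way. Matches were found in 3 members, Irf1, Irf2 and Irf8, and those 3 are shown because their promoters carry the motifs. Irf5 and Irf4, which like Irf1 passed the test of expression given further on, are shown for contrast, since no searched motif was found in their windows. Capitals mark the matched bases, each sequence ends at the base before the annotated start, and all 5 genes lie on the plus strand.
Irf1, chr11:53769764-53770013: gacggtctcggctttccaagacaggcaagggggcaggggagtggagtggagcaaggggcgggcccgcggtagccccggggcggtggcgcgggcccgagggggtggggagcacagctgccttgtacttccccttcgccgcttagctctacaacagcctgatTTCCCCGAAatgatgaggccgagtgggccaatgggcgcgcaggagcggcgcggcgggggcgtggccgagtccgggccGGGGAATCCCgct
Irf2, chr8:46739495-46739744: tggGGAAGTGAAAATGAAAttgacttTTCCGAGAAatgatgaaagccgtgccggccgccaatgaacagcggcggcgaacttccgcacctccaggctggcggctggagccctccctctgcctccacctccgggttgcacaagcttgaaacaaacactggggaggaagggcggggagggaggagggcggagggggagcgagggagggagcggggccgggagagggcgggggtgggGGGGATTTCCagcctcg
Irf8, chr8:120736108-120736357: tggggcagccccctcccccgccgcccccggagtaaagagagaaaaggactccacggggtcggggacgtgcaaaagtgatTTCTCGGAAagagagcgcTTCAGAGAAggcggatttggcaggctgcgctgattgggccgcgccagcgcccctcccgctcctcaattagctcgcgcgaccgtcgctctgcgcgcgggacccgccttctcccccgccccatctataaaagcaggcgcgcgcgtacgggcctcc
Irf5, chr6:29526375-29526624: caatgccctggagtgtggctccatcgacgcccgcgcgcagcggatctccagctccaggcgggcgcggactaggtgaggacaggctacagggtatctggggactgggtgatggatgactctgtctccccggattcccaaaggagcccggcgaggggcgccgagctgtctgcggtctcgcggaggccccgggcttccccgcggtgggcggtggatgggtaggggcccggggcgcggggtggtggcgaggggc
Irf4, chr13:30748983-30749232: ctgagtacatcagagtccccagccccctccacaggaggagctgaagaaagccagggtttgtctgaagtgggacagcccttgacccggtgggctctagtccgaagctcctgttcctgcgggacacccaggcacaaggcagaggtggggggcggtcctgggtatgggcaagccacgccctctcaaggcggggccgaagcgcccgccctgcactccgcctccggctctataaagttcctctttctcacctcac
Counted back from the start, Irf1 had a GAS match at -90 to -82 and an NF-kappaB match at -13 to -4. Irf2 had the widest set, with a composite match at -247 to -238 that overlaps an ISRE match at -241 to -232, a GAS match at -224 to -216 and an NF-kappaB match at -17 to -8. Irf8 had a pair of GAS matches, at -171 to -163 and at -153 to -145. No match was found in the windows of Irf3, Irf7 and Irf9, nor in the second start regions of Irf1, Irf8 and Irf9. A match says only that these letters are present, and the expression table does not measure binding to them.

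The family spanned a wide range of levels, as the plot of FPKM by library shows. In the CKO libraries the order by mean FPKM was Irf7 (291), Irf1 (176), Irf5 (38.4), Irf9 (35.6), Irf8 (22.4), Irf2 (12.7), Irf3 (6.74) and Irf4 (1.0). Irf5 and Irf9 were the only neighbours in this order with overlapping ranges. In the Control libraries the order was Irf7 (155), Irf1 (72.5), Irf9 (31.7), Irf5 (21.9), Irf8 (15.4), Irf3 (7.77), Irf2 (7.65) and Irf4 (4.97). There the ranges of Irf7 and Irf1, of Irf3 and Irf2, and of Irf2 and Irf4 overlapped, so those neighbours were not separated by the library spread. The FPKM of the 8 genes summed to 630, 622 and 502 in CKO libraries 1 to 3 and to 409, 316 and 227 in Control libraries 1 to 3. Irf7 supplied between 47.3% and 50.9% of that sum in the CKO libraries and between 29.3% and 58.6% in the Control libraries.

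**Figure D1:**
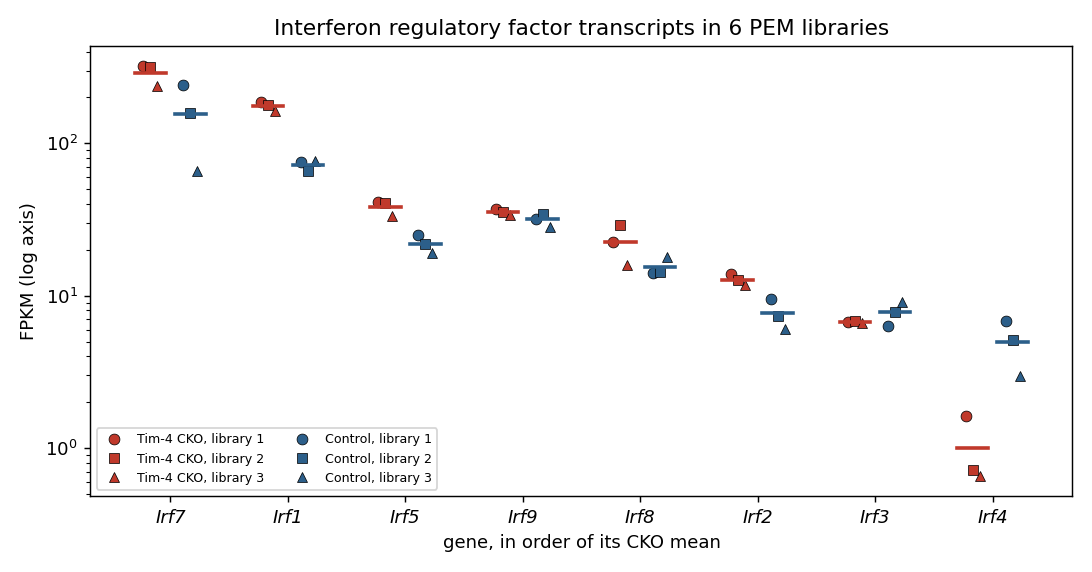
FPKM of the 8 IRF genes on a log axis, with 1 point for each of the 3 CKO (red) and 3 Control (blue) libraries and a bar at the group mean. Irf1, Irf2 and Irf5 lie higher in all 3 CKO libraries than in any Control library, Irf4 lies lower in all 3, and the other 4 genes overlap.

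Between the groups, Irf1 and Irf5 were higher and Irf4 was lower in the CKO libraries, and the remaining 5 members did not pass the test. Irf1 was 2.43-fold higher by the ratio of group means, Irf5 was 1.75-fold higher, and the Irf4 mean was 4.97-fold higher in the Control group. Expression was tested as log2(FPKM + 1) with limma across all 9030 genes, with Benjamini-Hochberg adjusted p-values and a threshold of 0.05, and the log2 fold changes given are CKO minus Control on that scale, where the pseudocount makes changes of low genes smaller. The 2 members that passed as higher compare with 2.57% of all tested genes, and the 1 that passed as lower with 4.74%. Counted without a test, 3 members had every CKO library above every Control library, against 11.1% of all genes, and 1 had every CKO library below, against 23.0%. The median log2 fold change of the 8 members was 0.58, and that of all tested genes was -0.11. After rescaling the libraries by the median of ratios these medians became 0.72 and 0.02, and the split over all genes moved from 232 higher and 428 lower to 342 higher and 320 lower. Irf1, Irf5 and Irf4 passed under both scalings.

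**Figure D2:**
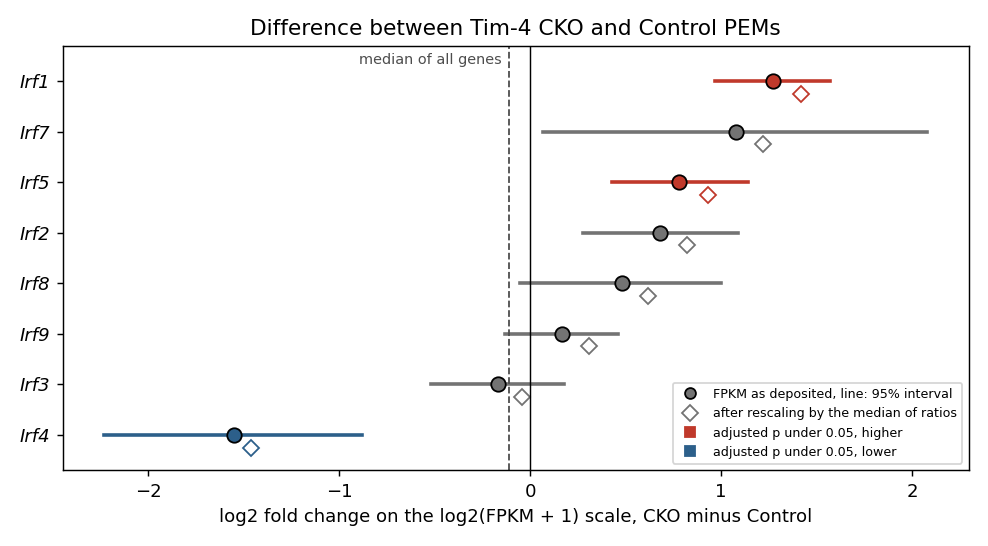
Log2 fold change of each IRF gene (CKO minus Control, log2(FPKM + 1) scale) with its 95% interval, coloured where the limma adjusted p is under 0.05, and the value after rescaling as an open diamond. Irf1 at 1.27 and Irf5 at 0.78 lie to the right of the all-gene median of -0.11 (dashed), and Irf4 at -1.55 lies to the left.

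Irf1 (Entrez 16362), the activator first described at the interferon beta gene, showed the clearest separation. It was at 187, 179.8 and 162 FPKM in CKO libraries 1 to 3, against 75.3, 65.6 and 76.7 FPKM in Control libraries 1 to 3. Both groups were tight and far apart, with the lowest CKO value above the highest Control value. The means were 176 ± 12.7 FPKM (SD, n = 3) and 72.5 ± 6.03 FPKM (SD, n = 3). The log2 fold change was 1.27 (standard error 0.13, 95% interval 0.97 to 1.57, adjusted p = 0.00651 from limma), and it lay between 1.20 and 1.43 in 12 alternative fits. The call was lost in 2 of these, without CKO library 1 (limma adjusted p = 0.0521) and without Control library 2 (limma adjusted p = 0.0549).

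Irf2 (Entrez 16363), which binds the same motifs as IRF1 and can repress there, was at 13.9, 12.6 and 11.8 FPKM in CKO libraries 1 to 3. In Control libraries 1 to 3 it was at 9.53, 7.41 and 6.03 FPKM. The groups did not overlap, but the Control values were spread more widely than those of the CKO group. The log2 fold change was 0.68 (standard error 0.17, 95% interval 0.28 to 1.09) and did not pass (limma adjusted p = 0.0571). With the replicate number as a block the adjusted p was 0.0372 from limma; in that fit 3 members passed as higher, against 3.90% of all genes. It also passed when Control library 1 was left out (log2 fold change 0.84, limma adjusted p = 0.0332). The FPKM ratio of Irf1 to Irf2 within a library was 13.4, 14.3 and 13.8 in the CKO group and 7.90, 8.85 and 12.7 in the Control group. The activator therefore exceeded its counterpart by more in each CKO library than in any Control library, although Control library 3 came close.

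Irf5 (Entrez 27056) encodes a factor that acts below MyD88 and drives inflammatory cytokine genes. It was at 41.1, 40.8 and 33.3 FPKM in the CKO libraries, against 24.9, 21.7 and 19.1 FPKM in the Control libraries. All CKO values were above all Control values, and CKO library 3 was the lowest of its group. The means were 38.4 ± 4.45 FPKM (SD, n = 3) and 21.9 ± 2.92 FPKM (SD, n = 3), and the log2 fold change was 0.78 (standard error 0.15, 95% interval 0.43 to 1.14, adjusted p = 0.0297 from limma). The call was lost without CKO library 1, CKO library 2 or Control library 2 (limma adjusted p of 0.132, 0.15 and 0.12). The log2 fold change was 0.73, 0.74 and 0.78 in these fits. Of all genes, 30, 63 and 8 passed in them, against 660 with all libraries. In RefSeq the end of Irf5 overlaps that of Tnpo3 on the opposite strand, and the sources used here do not say whether counting used the strand. Tnpo3 was at 15.6 to 16.9 FPKM in the CKO and 16.2 to 18.9 FPKM in the Control libraries.

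Irf4 (Entrez 16364), the member tied to alternative activation and to B cells and plasma cells, moved the other way. It was at 1.62, 0.722 and 0.658 FPKM in CKO libraries 1 to 3, from 326, 146 and 129 reads. In Control libraries 1 to 3 it was at 6.84, 5.11 and 2.96 FPKM, from 1292, 953 and 512 reads. Every CKO value was below every Control value, and Control library 3 was the lowest of its group. The log2 fold change was -1.55 (standard error 0.29, 95% interval -2.23 to -0.88, adjusted p = 0.0263 from limma), and with a pseudocount of 0.1 it was -2.23. The call was lost without a filter on low values (adjusted p = 0.0568 from limma), when voom was run on recovered reads (-2.22, adjusted p = 0.0519), and without CKO library 1, 2 or 3 or Control library 2 (adjusted p from limma of 0.062, 0.119, 0.0627 and 0.127).

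Genes of other cells moved with Irf4. All 8 B cell markers that were tested, among them Cd79a, fell in the CKO libraries in the limma test (4.74% of all genes did), of which voom called 2, and all 11 that were listed were lower in every CKO library than in any Control library, as were 23.0% of all tested genes. Their summed level was 6.18, 3.16 and 5.09 FPKM in CKO libraries 1 to 3 and 132, 92.4 and 32.3 FPKM in Control libraries 1 to 3. Within the Control group, Irf4 and this sum had the same order of libraries, as the plot of Irf4 beside the B cell markers shows. In the CKO group the orders differed, since Irf4 was lowest in library 3 and the sum in library 2. The plasma cell list summed to 27.2 to 32.9 FPKM in the CKO and 31.8 to 34.8 FPKM in the Control libraries, with 4 of its 5 listed genes lower in every CKO library. Of its 4 tested genes, Jchain and Mzb1 fell, from 4.41 FPKM or more in the Control libraries to 0.289 FPKM or less, and Sdc1, which other cells also express, rose from 11.6 to 12.6 FPKM to 20.7 to 27.7 FPKM. The 5 tested mast cell markers fell too (4 with the replicate block), from a sum of 38.2 to 49.3 FPKM in the Control libraries to 1.89 to 2.27 FPKM. So did 4 of the 7 tested markers of large peritoneal macrophages (5 with the block), with sums of 45.9 to 169 FPKM in the Control and 5.63 to 10.7 FPKM in the CKO libraries. The part of these cells in the Irf4 result was not tested.

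Ratios of 2 members within a library do not depend on how the libraries are scaled. The FPKM ratio of Irf5 to Irf4 was 25.4, 56.6 and 50.5 in the CKO libraries and 3.65, 4.24 and 6.46 in the Control libraries. The ratio of Irf8 to Irf4, 2 close relatives that share partner proteins, was 13.9, 40.0 and 24.0 in the CKO libraries and 2.07, 2.78 and 6.07 in the Control libraries. Neither ratio overlapped between the groups. For Irf5 to Irf4 this follows from the values of the 2 genes given above, which were already apart in opposite directions. For Irf8 to Irf4 it rests on Irf4, since Irf8 itself overlapped between the groups.

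Irf7 (Entrez 54123), the interferon-inducible member that amplifies the response, had the highest mean in both groups and the widest spread within the Control group. It was at 319.8, 317 and 238 FPKM in CKO libraries 1 to 3, against 239.8, 159 and 66.3 FPKM in Control libraries 1 to 3. The groups touched, since CKO library 3 was just below Control library 1. The Control values spanned a 3.62-fold range, with means of 291 ± 46.5 FPKM (SD, n = 3) in the CKO and 155 ± 86.8 FPKM (SD, n = 3) in the Control group. The log2 fold change of 1.08 (standard error 0.43, 95% interval 0.07 to 2.08) (limma adjusted p = 0.16) did not pass, nor did it in any of the 12 alternative fits, where it lay between 0.56 (without Control library 3) and 1.48 (without Control library 1). The estimate was near that of Irf1, with a larger error.

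The Control libraries were ordered alike for several members. Irf2, Irf4, Irf5 and Irf7 were each highest in Control library 1 and lowest in Control library 3, whereas Irf1, Irf3 and Irf8 were highest in Control library 3. Timd4 itself had the former order. The summed level of the 22 ISGF3 target genes also followed it, at 5514, 4271 and 2029 FPKM in Control libraries 1 to 3 and at 8473, 9595 and 6454 FPKM in CKO libraries 1 to 3. The part of this library-to-library order in the group differences was not tested.

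**Figure D3:**
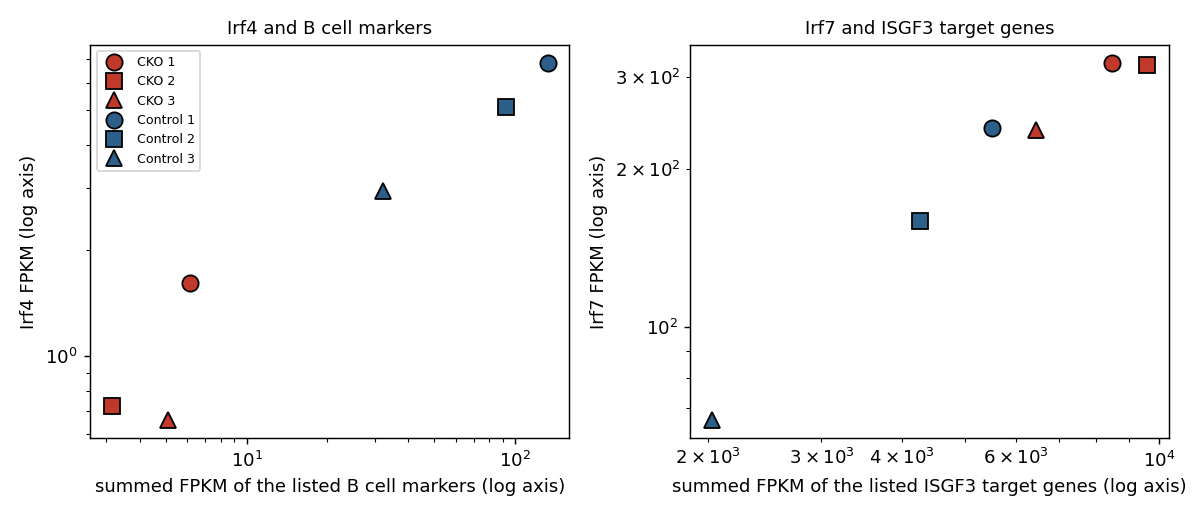
Irf4 FPKM against the summed FPKM of the listed B cell markers (left) and Irf7 FPKM against the summed FPKM of the 22 ISGF3 target genes (right), log axes, 1 point per library. The 3 CKO libraries hold 3.16 to 6.18 FPKM of B cell markers against 32.3 to 132 in the Control libraries, and Control library 3 is lowest in both Irf7 and ISGF3 target genes.

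Irf3, Irf8 and Irf9 did not pass the test. Irf3 (Entrez 54131), the constitutive member that TBK1 activates after translation, was at 6.77, 6.87 and 6.58 FPKM in the CKO libraries, against 6.32, 7.83 and 9.16 FPKM in the Control libraries. The CKO values lay inside the range of the Control values, and the difference of -0.17 on the log2 scale (95% interval -0.52 to 0.18, limma adjusted p = 0.495) became -0.04 after rescaling. The FPKM ratio of Irf7 to Irf3 was 47.3, 46.1 and 36.1 in the CKO and 37.9, 20.4 and 7.24 in the Control libraries, which overlapped.

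Irf8 (Entrez 15900), a lineage factor of macrophages and dendritic cells, was at 22.5, 28.9 and 15.8 FPKM in the CKO libraries, against 14.1, 14.2 and 17.9 FPKM in the Control libraries. CKO library 3 was below Control library 3, and the log2 fold change was 0.48 (95% interval -0.05 to 1.0, adjusted p = 0.213 from limma). Without CKO library 2, the highest, it was 0.28. Irf9 (Entrez 16391), the DNA-binding subunit of ISGF3, was at 37.2, 35.6 and 34.0 FPKM in the CKO libraries, against 32.1, 34.6 and 28.3 FPKM in the Control libraries. The ranges met at their edges, and the log2 fold change of 0.17 had a 95% interval of -0.13 to 0.46 (limma adjusted p = 0.426). It was 0.31 after rescaling, 0.32 with voom and 0.09 without Control library 3, and passed in none of these.

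**Figure D4:**
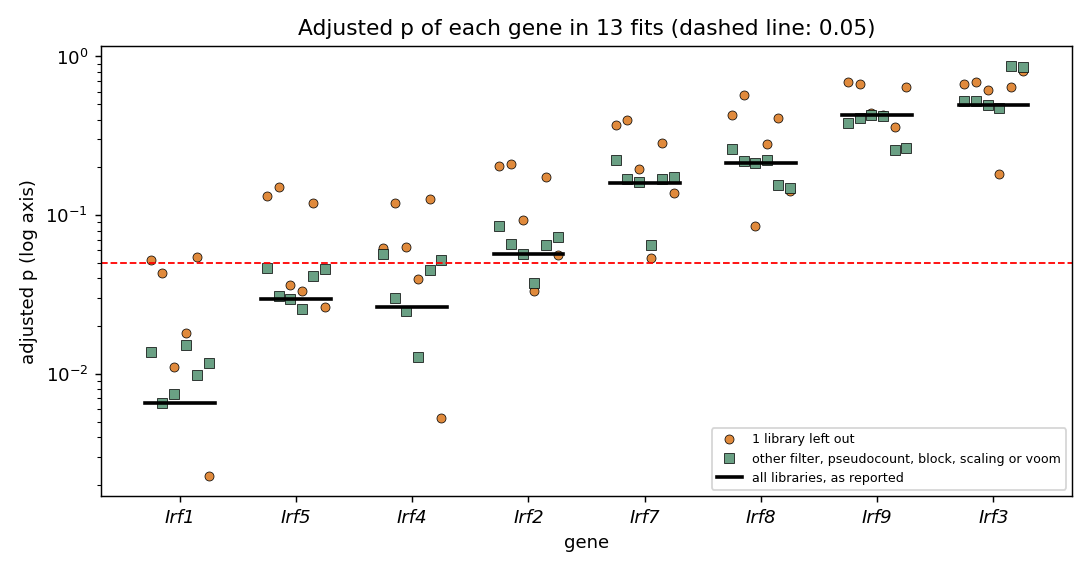
Limma adjusted p of each IRF gene on a log axis, as reported (bar), with 1 library left out (circles) and under another filter, pseudocount, block or scaling or with voom (squares), against the threshold of 0.05 (dashed). Irf1 lies between 0.00228 and 0.0549 over the 12 alternatives, Irf4 between 0.00525 and 0.127, and Irf3, Irf7, Irf8 and Irf9 stay above the threshold.

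For each member, the 3 genes with the nearest profile were taken by Euclidean distance between log2(FPKM + 1) values, each gene centred on its own mean over the 6 libraries. For Irf1 these were Tnfsf9, Fabp5 and Tle3 (distances of 0.17, 0.19 and 0.24). For Irf7 they were Oas3, Igtp and Tmem229b (0.16, 0.16 and 0.18), for Irf5 Parp14, Ndst2 and Alpk1 (0.13, 0.14 and 0.15), and for Irf2 Trim12a, Oas1a and Stard3 (0.10, 0.11 and 0.11). Only genes with a mean of at least 5 FPKM were compared. Among those, Irf4 had no such close neighbour, with Zfp36l1, Fosl2 and Tfec at 0.58, 0.58 and 0.64. Irf4 itself was below that level, so genes as low as Irf4, Spib among them, could not be named as its neighbours. Those of the flatter members were Ripk1, Cds2 and Arih1 for Irf3 (0.10, 0.13 and 0.13), Rftn1, Polr2g and Syf2 for Irf8 (0.23, 0.27 and 0.30), and Crlf3, Cept1 and Xrn2 for Irf9 (0.14, 0.15 and 0.15).

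Upstream of the IRFs stand the genes that sense LPS or nucleic acids and activate the factors. Of 23 such adaptors, sensors and kinases, 1 rose (2 with the replicate block) and none fell, a share near the 2.57% and 4.74% of all genes that did so, and their median log2 fold change was 0.03. That gene was Tlr7, the endosomal receptor for single-stranded RNA, at 74.4, 78.6 and 69.0 FPKM in the CKO libraries and 49.8, 53.2 and 44.9 FPKM in the Control libraries (log2 fold change 0.58, adjusted p = 0.0396 from limma). With 1 library left out, Tlr7 passed only without Control library 3. Tbk1, the IRF3 kinase, was at 69.5 to 80.5 FPKM and at 71.0 to 76.2 FPKM. In the interferon feedback, 1 of 12 tested genes rose and none fell (median 0.29), and 3 rose with the replicate block, but 0 passed after rescaling or with voom. Stat2, the partner of IRF9 in ISGF3, was at 98.8, 84.6 and 75.6 FPKM in the CKO and 51.2, 36.5 and 23.3 FPKM in the Control libraries (log2 fold change 1.26, adjusted p = 0.0383 from limma, 0.0523 after rescaling and 0.0562 with voom). Ifnb1, interferon beta itself, was below the filter, with 19, 27 and 36 reads in the CKO libraries and 6 reads in each Control library, or 0.587 to 1.14 against 0.197 to 0.215 FPKM.

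The proteins that bind DNA together with IRF4 and IRF8 split by direction, with 2 of 14 higher, 3 lower (4 with the replicate block) and a median of 0.00, where 2.57% of all genes were higher and 4.74% lower. Batf, whose dimer with JUN recruits IRF4 or IRF8, was at 88.8, 87.2 and 70.8 FPKM in the CKO libraries, against 32.8, 33.3 and 44.2 FPKM in the Control libraries (log2 fold change 1.15, adjusted p = 0.0146 from limma). The other that rose was Ikzf1, named only to complete the count. Spib, an ETS factor of B cells and plasmacytoid dendritic cells, was at 0.545, 0.232 and 0.246 FPKM against 6.41, 4.28 and 1.91 FPKM (log2 fold change -1.86, limma adjusted p = 0.0216, and 0.053 with voom). Ets1 and Nfatc1 also fell (log2 fold changes of -1.13 and -1.0), while Spi1, which encodes the macrophage ETS factor PU.1, was at 191 to 276 FPKM in all 6 libraries. Spib and Ets1 are also lymphocyte genes, and the B cell sums given with Irf4 moved with them. So did the listed markers of plasmacytoid dendritic cells, with sums of 11.4, 11.0 and 10.4 FPKM in the CKO and 88.2, 41.6 and 28.9 FPKM in the Control libraries and 1 of 3 tested genes (Ly6d) lower, while Siglech was at 0.0536 FPKM or less in every library. The part of these cells was not tested.

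Among 14 cofactors and restraints of IRF proteins, 1 fell, against 4.74% of all genes, and none rose (median 0.10). It was Irf2bp2, which encodes a corepressor that binds IRF2, at 2.27, 2.02 and 5.10 FPKM in the CKO libraries, against 14.2, 13.9 and 10.1 FPKM in the Control libraries. The groups were far apart, by -1.79 on the log2 scale (limma adjusted p = 0.0185). Its relative Irf2bp1 was at 2.02 to 3.06 and 2.37 to 3.91 FPKM.

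Target genes of ISGF3 and IRF1 were mostly at positive log2 fold changes, and few of them passed. Of the 22 ISGF3 target genes tested, all 22 had a log2 fold change above 0 (36.5% of all genes did), as they did after rescaling (52.1% of all genes), with a median of 0.86, and in 17 every CKO library was above every Control library, against 11.1% of all genes. Only Parp14, an antiviral ADP-ribosyltransferase, passed, at 369, 343 and 313 FPKM against 231, 189 and 175 FPKM (log2 fold change 0.79, adjusted p = 0.0279 from limma), where 2.57% of all genes passed as higher. With the replicate block 10 passed as higher, against 3.90% of all genes. The count was 11 without Control library 1, 6 without Control library 3, and 0 without CKO library 1, CKO library 2 or Control library 2. Of the 22 IRF1 target genes tested, 21 were above 0 (median 0.91, and 0.45 without Control library 3). Among them 2 rose and 1 fell, beside 2.57% and 4.74% of all genes, and 9 rose with the block, beside 3.90%. Il15, a cytokine that sustains lymphocytes, was at 51.5, 59.0 and 34.4 FPKM against 16.3, 17 and 10.8 FPKM (log2 fold change 1.64, adjusted p = 0.0153 from limma). Cd274, the checkpoint ligand PD-L1, also rose (log2 fold change 1.13). Ciita, the master switch of MHC class II genes, fell from 1.03, 1.28 and 1.63 FPKM to 0.601, 0.373 and 0.487 FPKM (log2 fold change -0.63, adjusted p = 0.0426 from limma), a call lost with the replicate block (adjusted p = 0.0557) and without a filter on low values (adjusted p = 0.0538).

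The targets of IRF5, IRF4 and IRF8 gave no single direction. Of 10 cytokine genes tied to IRF5, none passed in limma (2 had an unadjusted p under 0.05) or in voom, 2 rose with the block, and 7 were above 0 with a median of 0.34. Those below 0 were Il6, Il1b and Il1a (log2 fold changes of -0.88, -0.33 and -0.19), each with overlapping groups. Tnf was at 4204 to 5695 FPKM in the CKO and 3220.4 to 4491 FPKM in the Control libraries, and Ccl3 was at 4274 to 6039 and 3579 to 4968 FPKM, so both overlapped. Of 9 tested alternative activation genes tied to IRF4, 1 rose and 1 fell, beside 2.57% and 4.74% of all genes. With the replicate block 1 rose and 3 fell, and 5 passed in all without Control library 3. Their median of -1.27 became -0.33 without a filter on low values, -0.80 without Control library 1 and -1.90 without Control library 3. Retnla, a secreted marker of alternative activation, was at 8.71, 8.62 and 15.0 FPKM in the CKO libraries against 3428, 1507 and 98.5 FPKM in the Control libraries (log2 fold change -6.13, limma adjusted p = 0.0283, and 0.0605 without a filter), while Mrc1, the mannose receptor, rose from 41.9 to 46.2 FPKM to 63.4 to 69.4 FPKM. Of 13 targets of IRF8, 1 rose and 3 fell (median 0.00), beside 2.57% and 4.74% of all genes. The lysosomal protease gene Ctss rose (log2 fold change 0.58), but did not pass with the replicate block (adjusted p = 0.0508) or without a filter (adjusted p = 0.141). Those that fell included Naip2 and Nlrc4 (-0.93 and -1.10), which encode a sensor and the shared adaptor of an inflammasome for bacterial proteins, and Nlrc4 missed the threshold without a filter (adjusted p = 0.0505). Over all 9 lists 18 genes passed, beside 660 of all 9030 tested genes. Without CKO library 1, CKO library 2 or Control library 2, 0 of them did, in fits where 30, 63 and 8 of all genes passed. The lists held 29 such genes without Control library 1 and 34 without Control library 3.

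**Figure D5:**
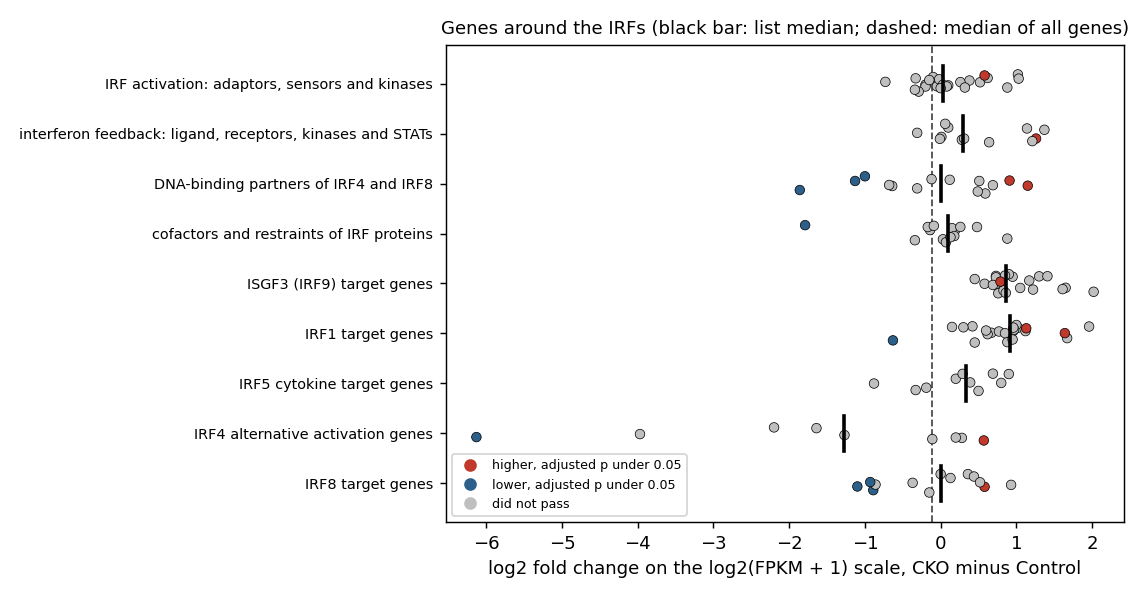
Log2 fold change (CKO minus Control, log2(FPKM + 1) scale) of each tested gene in 9 lists around the IRFs, red or blue where it passed as higher or lower, with a bar at the list median and a dashed line at the all-gene median of -0.11. All 22 ISGF3 target genes lie above 0, the IRF4-linked genes reach down to -6.13 (Retnla), and most points are grey because they did not pass.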

How the data were processed

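RNA of 3 CKO and 3 Control PEM libraries was sequenced. The authors deposited FPKM per gene and library, scaled by gene length and counted reads, and signal columns, the mean counts of each group divided by DESeq2 size factors. The fold change, p-value and q-value columns of that table are the authors' own comparison and were not used. Per the labels the build was mm9. The aligner, the counting and the annotation are not given in the sources used here.

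Whole reads were recovered from both kinds of values, with 100% of values within 0.05 of a whole number, and 36170767 to 42217558 reads per library. With no counts deposited, log2(FPKM + 1) was fitted with limma 3.58.1 (eBayes with trend) under R 4.3.3, using the 9030 genes whose mean reached 1 FPKM in either group, and p-values were adjusted after Benjamini and Hochberg (threshold 0.05). For single values, the smallest two-sided p that exact permutation allows with 3 against 3 is 0.1.

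The members, gene lists and tests were chosen with earlier results of these data known. The rule named the members, Timd4, Lyz2, up to 4 called genes per list by size of change (or the 2 most abundant) and the 3 nearest profiles among genes with a mean of at least 5 FPKM. A gene that this rule names in the list of IRF8 targets is not reported here, and cell marker lists are given mainly by counts and sums. The macrophage genes other than Fcgr1 and Lyz2, the dendritic cell genes other than Itgax and Ccr7, and Spi1, Tbk1, Irf2bp1, Ifnb1, Ikzf1, Siglech, Il6, Il1b, Il1a, Tnpo3 and Rnf31 were named after their values were seen.

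As a check of pairing, deviations from the group means correlated at 0.109, 0.109 and 0.304 for CKO and Control libraries 1, 2 and 3, all above 0.1, and libraries of other numbers between -0.332 and 0.291. Libraries of different number, CKO library 2 and Control library 1, reached 0.291, above the 0.109 of libraries 1 and 2. This measure therefore did not show that the numbers pair the libraries. A fit with the number as a block was run only as an alternative. The others were no filter, at least 10 reads in every library, a pseudocount of 0.1, rescaling by the median of ratios, voom on the recovered reads, each library left out and thresholds of 0.01 and 0.1.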

Additional observations from a re-analysis of the deposited data

How the results depend on the processing

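None of the 8 members changed direction in 12 alternative fits. The log2 fold changes with 1 library left out lay between 1.20 and 1.33 for Irf1, 0.54 and 0.84 for Irf2, -1.82 and -1.33 for Irf4, and 0.69 and 0.88 for Irf5. Irf2 passed with the replicate block (0.68, adjusted p = 0.0372 from limma), and the block changed no other call of a member. Irf4 did not pass without a filter on low values (-1.55) or with voom (-2.22), so that 0 members were then called lower. With 1 library left out, 0 to 4 members were called, 0 to 3 as higher and 0 or 1 as lower. At a threshold of 0.01, 1 member was called, 1 higher and 0 lower. Over all genes, 660 were called (8 to 1333 with 1 library left out, the lowest without Control library 2 and the highest without Control library 3), and 48 and 1421 at thresholds of 0.01 and 0.1. Of these, 232 were higher (1 to 529 with 1 library left out, 352 with the block, 141 without a filter, 15 and 511 at the 2 thresholds) and 428 lower (7 to 804, and 33 and 910). Of the pathway and target genes, 18 were called, 40 with the block, 0 to 34 with 1 library left out, and 0 and 37 at the 2 thresholds. The cause of these shifts was not tested, but a library left out leaves fewer samples. A fit with edgeR, planned only in case raw counts were deposited, was not run, nor was DESeq2. The lowest value of a member, Irf4 in CKO library 3, rested on 129 reads. The medians of the activation, partner, cofactor and IRF8 target lists lay between -0.13 and 0.26 in all alternatives.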

Other observations

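Other cells and states than those described with Irf4 also differed in their markers. Among neutrophil markers, 3 of 8 tested genes fell in the CKO libraries in limma (4.74% of all genes did) and 1 passed in voom, with a summed level of 179, 114 and 239 FPKM against 283, 366 and 498 FPKM. Markers of mesothelial cells and fibroblasts went the other way, with 13.1, 37.3 and 16.4 FPKM in CKO libraries 1 to 3 and 2.15, 6.49 and 13.9 FPKM in Control libraries 1 to 3, and 0 of 5 passed in limma (3 had an unadjusted p under 0.05, 0 passed in voom, and 3 rose with the replicate block). Of 2 tested T and NK cell markers, Cd2 fell in limma and 0 passed in voom, and the listed markers summed to 2.0, 1.92 and 1.23 FPKM against 11.4, 7.28 and 2.81 FPKM. None of the tested markers of small peritoneal macrophages (4) or dendritic cells (2) passed in limma or voom, with 0 and 1 at an unadjusted p under 0.05.

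Rnf31, the neighbour of Irf9, was at 40.0, 38.0 and 29.0 FPKM in CKO libraries 1 to 3 against 26.1, 20.1 and 19.9 FPKM in the Control group. Every CKO value of Rnf31 was above every Control value, as for 11.1% of all tested genes, although the groups of Irf9 overlapped. Rnf31 did not pass in limma (adjusted p = 0.0621), but did with the replicate block (limma adjusted p = 0.0423). Without a filter on low values, Ifnb1 had a log2 fold change of 0.61 and an adjusted p of 0.0464 from limma.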
